A study of Mus musculus with 3 samples.

Results

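The cells described here are chemokine-rich neutrophils of the mouse cornea and limbus after nitrogen mustard (NM), an alkylating blistering agent. They were chosen in the 2 injured libraries from their own counts of UMIs (unique molecular identifiers, 1 for each captured transcript). A barcode needed 500 or more genes with a UMI, and mitochondrial UMIs of 20% or less. A cell also had to hold a UMI of at least 3 of 8 gate genes (Csf3r, Cxcr2, Il1r2, Hdc, G0s2, Clec4e, Trem1 and Acod1), at most 2 UMIs of the complement genes C1qa, C1qb and C1qc together, and under 50 UMIs per 10000 of the keratins Krt5, Krt14 and Krt12. A gated neutrophil was called chemokine-rich if its Ccl3 and Ccl4 UMIs outnumbered its S100a8 and S100a9 UMIs, so the members were chosen by measured levels of the gate genes and of these 4 genes. The rule took 2049 of 23863 passing cells in all 3 libraries: 1688 of 6134 in the saline library, 361 of 5162 in the losartan library and 0 of 12567 in the uninjured library. The other 2808 gated neutrophils are called S100a8/S100a9-dominant, though 51 saline and 62 losartan cells among them had equal sums.

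The study profiled wild-type (wt) mice in 3 single-cell 10x Genomics libraries of cornea with limbus, 1 uninjured, 1 NM-injured and given saline, and 1 NM-injured and given losartan, a blocker of the angiotensin II type 1 receptor. Lens, retina, iris and trabecular meshwork had been removed with most of the conjunctiva, and liberase and trypsin were used, in that order, to free the cells. How many mice went into a library, how long after NM they were taken, and how losartan was dosed are not given in the sources used here. With 1 library per group, no difference between the groups has a replicate check, no test was made, and every interval below is a 95% interval that covers counting error alone.

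Neutrophils are short-lived white cells that leave the blood for injured tissue, drawn by CXC chemokines acting on the receptor CXCR2. Once in tissue they can themselves make chemokines and interleukin 1, and they lose features of the circulating cell, such as CXCR2, as they age. CCL3 and CCL4 are CC chemokines that attract monocytes, lymphocytes and neutrophils, whereas S100A8 and S100A9 form calprotectin, the main cytosolic protein of the fresh neutrophil.

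The label held for most of the members and not for all of them. A clustering of the gated cells put 203 saline and 36 losartan members in a cluster led by Fn1, Pf4, Mmp12, Arg1 and Ccl7, genes that macrophages express, here cluster 5. These cells carried a median of 17890 UMIs in saline and 16086 in losartan, just 3 of the 8 gate genes and 1 and 0 UMIs of S100a8 and S100a9. Their summed macrophage markers reached 21239 CPM (UMIs per 1000000) in saline and 9133 CPM in losartan, and their dendritic markers 12062 and 30572 CPM. The 25 neutrophil markers that are not gate genes summed to 3812 and 1282.5 CPM in them. A further 10 saline and 3 losartan members lay in cluster 6, led by the stromal genes Dcn, Sparc and Kera, and 9 and 3 of them scored as doublets. Together these 252 cells made up 12.6% of the saline members (11.1 to 14.3) and 10.8% of the losartan members (7.80 to 14.5), and 39.1% and 41.0% of the members' UMIs. Clusters were set aside where another cell type's markers (macrophage and dendritic ones together) outsummed the gate genes plus the 25 neutrophil markers. Over all gated cells, macrophage and dendritic markers were 33783 against 5272 CPM in cluster 5. Stromal markers were 23629 against 6847 CPM in cluster 6. The 252 cells are not called neutrophils in the text below, and shares that count them are given over gated cells. Unless all members are named, values are for the other 1797 members, 1475 saline and 322 losartan cells, and all-member values stand beside the main results.

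In those 1797 cells the 25 neutrophil markers that are not gate genes summed to 13578 CPM in saline, with all 25 detected, and to 12294 CPM in losartan, with 24 detected and Ngp at 0. In the cells outside the gate they summed to 2615 and 1457 CPM. The gate genes were required by the rule, so their levels describe the choice of cells. Clec4e, the receptor Mincle, had a UMI in 97.5% of the saline and 96.0% of the losartan cells, Hdc, the histamine-forming enzyme, in 86.1% and 91.6%. Csf3r, the receptor for granulocyte colony-stimulating factor, was at 253 and 438 CPM, beside 2.23 and 2.23 CPM outside the gate. In the cells outside the gate, the summed level of Clec4e was 87.9 CPM in saline and 29.5 CPM in losartan, against 4744 and 4959 CPM in the members. Hdc is also a basophil and mast cell gene, yet 10 of the 14 basophil and mast cell markers, among them Mcpt8, Fcer1a, Ms4a2 and Cpa3, had 0 UMIs in both libraries, and the list summed to 11.3 and 34.0 CPM. Eosinophil markers summed to 21.8 and 28.5 CPM, with Epx, Ear1 and Rnase2a at 0 in both. T and NK cell markers summed to 10.5 and 14.3 CPM, with 4 of 15 detected in saline and 3 in losartan. Cd3e, Cd3g and Nkg7 were at 0 in both. Macrophage markers summed to 8791 and 7382 CPM, of which Spp1, the gene of osteopontin, gave 8298 and 7026 CPM. All 20 of these markers were detected in the saline members and 17 in the fewer losartan members. Those at 0 in losartan were Ccr2, Mertk and C1qb, and the rule itself limited C1qb. The dendritic list summed to 665 and 738 CPM, with 10 of 14 markers detected in saline and 7 in losartan. Of these, 4 and 3 were at 50 CPM or more, while Ccr7, Ccl22, Cd209a and Siglech were at 0 in both.

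Depth and epithelial RNA differed between the libraries. The members held a median of 3987 UMIs in saline and 2701 in losartan, and 6095292 and 910949 UMIs in all. Their median mitochondrial share was 0.0916% and 0.0738%. Epithelial markers had a per-cell median of 4.04 UMIs per 10000 in the saline members and 15.7 in the losartan members. In the cells outside the gate the same list had a median of 31.4 and 165 per 10000. The libraries shared 7 barcodes between saline and losartan, 21 between uninjured and saline and 28 between uninjured and losartan, and 0 of them were members in both injured libraries. No doublets were removed in the values given here.

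All members of the rule, clusters 5 and 6 included, made up 27.5% of the passing cells in saline (26.4 to 28.7) and 6.99% in losartan (6.31 to 7.72). Among cells with at least 1000 genes the shares were 28.8% and 4.39%. In the uninjured library 0 of 12567 cells passed the gate, which allows a share of up to 0.0239%. Without clusters 5 and 6 the shares were 24.0% (23.0 to 25.1) and 6.24% (5.59 to 6.93). Of the gated cells alone, clusters 5 and 6 included, 50.1% were chemokine-rich in saline (48.4 to 51.8) and 24.3% in losartan (22.1 to 26.5). Without clusters 5 and 6 the shares were 47.6% and 23.3%. With every cell thinned to 1000 UMIs before the rule was applied, and clusters 5 and 6 included, they were 44.4% and 22.2%. All gated cells, clusters 5 and 6 included, made up 54.9% of the passing cells in saline (53.7 to 56.2) and 28.8% in losartan (27.6 to 30.1). So the losartan library held a smaller share of gated cells, and a smaller share of chemokine-rich cells among those.

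The split is a point on a continuous range, described here over all gated cells and all members, clusters 5 and 6 included. The median gated cell in saline held 53 UMIs of Ccl3 and Ccl4 and 57 of S100a8 and S100a9, and in losartan 6 and 49. The log2 ratio of these sums, each plus 1, had a median of 0.01 in saline and −2.26 in losartan. Just inside the boundary, 284 saline and 66 losartan members had a ratio under 1.5, with medians of 75 chemokine against 61 calprotectin UMIs in saline and 43.5 against 36 in losartan. Just outside it lay 320 saline and 83 losartan cells, with 67 against 81.5 and 27 against 34. At the far end, 151 saline and 64 losartan members held 0 UMIs of S100a8 and S100a9.

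**Figure D1:**
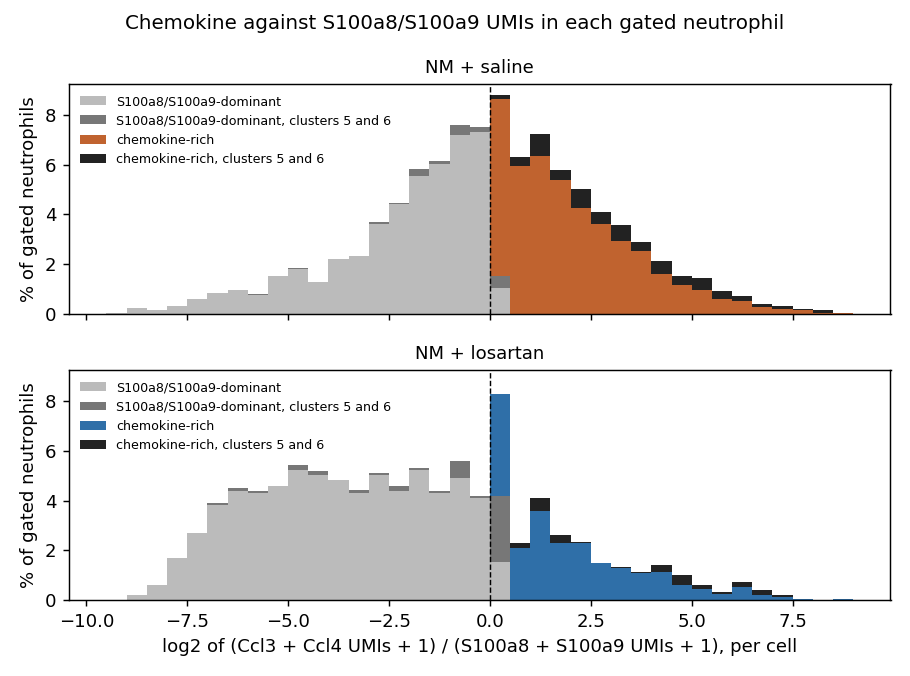
Share of gated cells (y axis, %, labelled gated neutrophils) in the saline and the losartan library. The x axis is the log2 ratio of Ccl3 plus Ccl4 to S100a8 plus S100a9 UMIs in each cell, each sum plus 1. The dashed line is the boundary, grey cells right of it have equal sums, and the darker shades are clusters 5 and 6. The saline cells lie around a median of 0.01 and the losartan cells spread to the left around −2.26.

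Since the rule used Ccl3, Ccl4, S100a8 and S100a9, their levels in the members are a description. Ccl3 reached 14166 CPM in saline (14072 to 14261) and 9055 CPM in losartan (8861 to 9253), 1.56-fold lower in losartan (1.53 to 1.60). Ccl4 reached 15442 and 17176 CPM, 1.11-fold higher in losartan (1.09 to 1.13). The paired genes thus stood in another proportion, 86347 Ccl3 to 94125 Ccl4 UMIs in saline and 8249 to 15646 in losartan. A lower losartan-to-saline ratio for Ccl3 than for Ccl4 was also seen in each of the 4 neutrophil clusters of members and in the S100a8/S100a9-dominant cells, where the ratios were 0.317 and 0.485. Per cell, the median was 120 Ccl3 UMIs per 10000 in saline (90% of cells above 33.2) and 72.1 in losartan. With all members, Ccl3 was 9419 and 5697 CPM and Ccl4 10173 and 10715 CPM.

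The CXC chemokines Cxcl1, Cxcl2 and Cxcl3 attract neutrophils. Cxcl2 made up 73775 CPM in saline and 68515 CPM in losartan, in a median cell 616 and 565 UMIs per 10000. Cxcl3 was 19177 and 12327 CPM, 1.56-fold lower in losartan (1.53 to 1.59), and Cxcl1 was 4718 and 3062 CPM, 1.54-fold lower (1.48 to 1.60). Cxcl1 was less evenly spread, with a UMI in 58.7% and 45.0% of the cells, against 99.9% and 99.7% for Cxcl2. Ccrl2, a non-signalling receptor that binds chemerin, was 3160 and 2479 CPM. Ppbp, a platelet chemokine, was 884 CPM in saline and 87.8 CPM in losartan, but the cells outside the gate held far more of it, 7522 and 1884 CPM. In the uninjured library, Cxcl2 was at 4.23 CPM, Cxcl3 at 0.0737 CPM and Ccl3 at 0.555 CPM over all passing cells.

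The promoters of the 3 CXC genes are shown because they share a motif that the promoter of Ccl3 lacks in the same window. Each sequence is the 250 bases before the transcription start, from RefSeq on GRCm38.p6 and read along the gene, with matches to the NF-kB motif kappaB (GGG, any pair of bases, then TTTCC, searched on both strands) in capitals. Cxcl1 lies at chr5:90890995-90891244 on the plus strand, Cxcl2 at chr5:90903649-90903898 on the plus strand, Cxcl3 at chr5:90785851-90786100 on the plus strand and Ccl3 at chr11:83649379-83649628 on the minus strand.
Cxcl1: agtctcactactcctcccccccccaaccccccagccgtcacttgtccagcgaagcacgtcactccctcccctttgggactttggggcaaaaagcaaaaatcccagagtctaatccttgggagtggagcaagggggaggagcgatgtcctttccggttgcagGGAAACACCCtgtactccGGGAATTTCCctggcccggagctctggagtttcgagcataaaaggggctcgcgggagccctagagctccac
Cxcl2: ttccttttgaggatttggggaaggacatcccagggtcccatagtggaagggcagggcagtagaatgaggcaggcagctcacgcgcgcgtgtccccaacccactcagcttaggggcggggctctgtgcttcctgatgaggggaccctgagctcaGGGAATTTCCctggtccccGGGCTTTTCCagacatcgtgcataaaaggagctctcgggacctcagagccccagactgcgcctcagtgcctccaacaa
Cxcl3: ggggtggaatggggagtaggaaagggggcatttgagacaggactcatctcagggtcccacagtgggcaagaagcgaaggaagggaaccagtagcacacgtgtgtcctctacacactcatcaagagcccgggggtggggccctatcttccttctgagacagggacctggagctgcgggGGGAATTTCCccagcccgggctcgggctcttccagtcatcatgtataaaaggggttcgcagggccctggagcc
Ccl3: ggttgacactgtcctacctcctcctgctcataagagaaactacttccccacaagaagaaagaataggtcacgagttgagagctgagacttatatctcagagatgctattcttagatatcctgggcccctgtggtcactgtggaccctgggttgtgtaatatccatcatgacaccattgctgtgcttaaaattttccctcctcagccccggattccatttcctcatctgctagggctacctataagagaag
The matches begin 89 and 71 bases before the start in Cxcl1, the first of them on the opposite strand, 97 and 78 bases before it in Cxcl2, and 73 bases before it in Cxcl3. Of 32851 promoter windows of this length, 1.41% held a match. Among the 12 genes looked up with an entry, these 3 had a match, and the windows of Tnf, Il1a, Il1b, Inhba, S100a8, S100a9, Cxcr2 and Il1r2 had none. The motifs AP-1, CRE and C/EBP were also searched in these windows. AP-1 had 1 match in Il1a, C/EBP had 1 match each in Inhba and S100a9, and CRE had 0. A match describes these letters only, and no binding was measured. A window without a match may still hold sites with other letters, and sites outside it were not searched.

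Transcripts of interleukin 1 and tumour necrosis factor were found alongside, and no protein was measured. Tnf was 3979 CPM in saline (3930 to 4030) and 2720 CPM in losartan (2614 to 2830), 1.46-fold lower (1.40 to 1.53). Il1a, the interleukin 1 form that acts as an alarm signal from dying cells, was 3619 and 2233 CPM, 1.62-fold lower (1.55 to 1.70). Il1b, the form secreted after inflammasome cleavage, was 15560 and 17798 CPM, 1.14-fold higher in losartan, and Il1rn, the receptor antagonist, was 2810 and 2225 CPM. With all members, Tnf was 2533 and 1786 CPM and Il1a 2459 and 1448 CPM. Of the 22 listed cytokines 11 were measured at 50 CPM or more. Their median log2 ratio was −0.33, against 0.01 over all 2618 measured genes. None was past 2-fold either way, where 1.38% of all measured genes were higher in losartan and 1.80% lower. Lower in losartan were 7 of 11, beside 1279 of all 2618.

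Thinning each cell to 1500 UMIs put the libraries on the same depth, and 27 saline and 8 losartan members fell under it and were left out. Tnf then had a UMI in 80.5% of saline and 74.2% of losartan members (87.7% and 83.2% before thinning), and Il1a in 86.3% and 67.5% (92.8% and 72.4% before). In the thinned cells outside the gate, Tnf was seen in 7.5% and 2.7% and Il1a in 10.8% and 5.6%. All of Ccl3, Ccl4, Tnf and Il1a were found together in 64.3% of saline members (61.8 to 66.8) and 48.4% of losartan members (42.8 to 54.1). Neither Tnf nor Il1a was found in 3.73% (2.81 to 4.84) and 11.8% (8.43 to 15.9).

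Further mediators differed in how many cells held them, and the shares given first are from unthinned cells, which differed in depth between the libraries. Il23a, a subunit of interleukin 23, was 1279 CPM in 56.5% of the saline members and 900 CPM in 45.0% of the losartan members. Csf3, granulocyte colony-stimulating factor, was 733 CPM in 33.8% of the saline members and 453 CPM in 20.2% of the losartan members. Inhba, the activin A subunit, was 981 CPM in 57.2% of the saline and 414 CPM in 28.3% of the losartan members, 2.37-fold lower in losartan (2.14 to 2.64). In the members thinned to the same depth, Il23a had a UMI in 44.5% in saline and 33.8% in losartan. Csf3 then had a UMI in 28.3% and 15.9%, and Inhba in 43.2% and 23.9%. Osm, oncostatin M, was nearly equal at 446 and 428 CPM, and Csf1, the macrophage growth factor, was 538 and 651 CPM. Il10 was 44.0 and 19.8 CPM. Il6 had 1 UMI in the saline members and 23 UMIs in the losartan members, all 23 in 1 of the 322 cells.

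**Figure D2:**
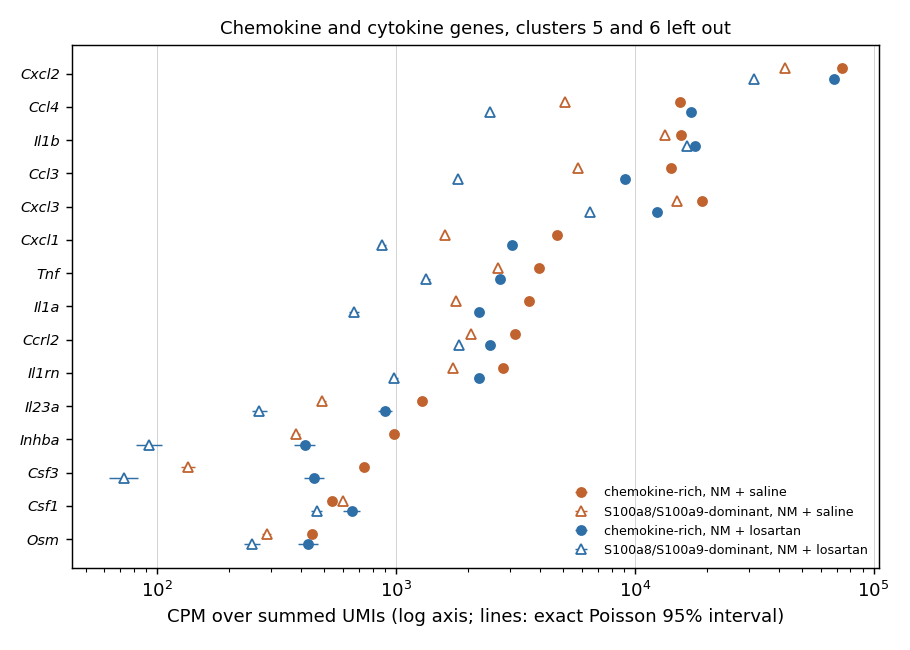
Level of 15 chemokine and cytokine genes (y axis) in CPM on a log axis (x axis), in chemokine-rich cells (filled circles) and S100a8/S100a9-dominant cells (open triangles) of the saline (orange) and losartan (blue) libraries, clusters 5 and 6 left out; lines are 95% Poisson intervals. Cxcl2 is highest in all 4 sets, and Csf3 runs from 72.4 to 733 CPM.

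The members were next set against the S100a8/S100a9-dominant neutrophils of the same library. The rule split the same cells on 4 genes, so these values describe the split and nothing is read from their number. Of 2425 measured genes, 18 (0.742%) were at least 2-fold higher and 21 (0.866%) at least 2-fold lower in both libraries on the scale of log2 CPM plus 20. With clusters 5 and 6 in both sets the numbers were 42 of 2745 (1.53%) and 31 (1.13%), and the higher genes then included Fcgr2b, Ctss, Lgals3 and Dab2, which macrophages express.

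Among the higher genes that the rule did not use, Csf3 was 733 against 134 CPM in saline and 453 against 72.4 CPM in losartan. Cxcl1 was 4718 against 1602 CPM and 3062 against 873 CPM. Il23a was 1279 against 490 CPM and 900 against 267 CPM, and Inhba 981 against 383 CPM and 414 against 92.3 CPM. Atf3, a stress-induced transcription factor, was 393 against 174 CPM and 272 against 90.2 CPM. Hcar2, the receptor for hydroxybutyrate and niacin, was 1991 against 949 CPM and 1350 against 438 CPM. The remaining named genes were Hgsnat, a lysosomal acetyltransferase, Chka, the choline kinase, and the class II antigen presentation genes H2-Aa and Cd74. H2-Aa was 152 against 46.4 CPM in saline and 111 against 41.4 CPM in losartan, low beside the 2914 and 8027 CPM of cluster 5.

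Il1b did not follow the chemokines. It was 15560 against 13439.7 CPM in saline and 17798 against 16581 CPM in losartan, a smaller difference than that of each CXC chemokine above. The 10 measured chemokines, with Ccl3 and Ccl4 among them by the rule, had a median log2 ratio of 0.86 in saline and 1.31 in losartan, and the 12 measured cytokines 0.58 and 0.94, against −0.02 and −0.15 over all measured genes. A median-of-ratios scaling put the centre of the losartan comparison at −0.14, to which its values are relative. NF-kB feedback genes, inhibitors that NF-kB itself induces, had medians of 0.30 and 0.12 over 21 genes.

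The lower genes held Cxcr2, a gate gene and so a description, beside S100a8 and S100a9. Cxcr2 was 187 against 594 CPM in saline and 330 against 812 CPM in losartan, and Lrg1, a granule glycoprotein, 31.7 against 241 CPM and 270 against 784 CPM. Retnlg, a resistin-like secreted protein of mature neutrophils, was 605 against 3491 CPM in saline and 408 against 822 CPM in losartan. At least 2-fold lower in both libraries were, besides Lrg1 and Cxcr2, the genes Rdh12, Nedd9, Tpd52, Sorl1, Atp11b, Dusp6, Smchd1 and Wbp1l. The 18 measured genes of the calgranulin and mature neutrophil list had medians of −0.93 and −0.70, with S100a8 and S100a9 among them by the rule.

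Among themselves the 1797 members fell into 4 neutrophil clusters, found with the same genes that are compared below, so their sizes are a description of composition. Cluster 1, led by Stfa2l1, Car4, Csta3, Fpr1 and Lcn2, held 47.3% of the saline and 13.0% of the losartan members. Cluster 3, led by Ccnf, Atp6v0d2, Itpr2, Hcar2 and Cyp4f18, held 42.4% and 23.6%. Cluster 2, led by Lrg1, Krt12, Il1r2, H2-Q10 and Sirpb1b, held 4.75% and 58.1%, and a cluster mostly of 1 library may be that library and not a cell state. Cluster 4, led by Slfn4, Rtp4, Lrg1, Isg15 and Cxcr2, held 5.63% and 5.28%.

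**Figure D3:**
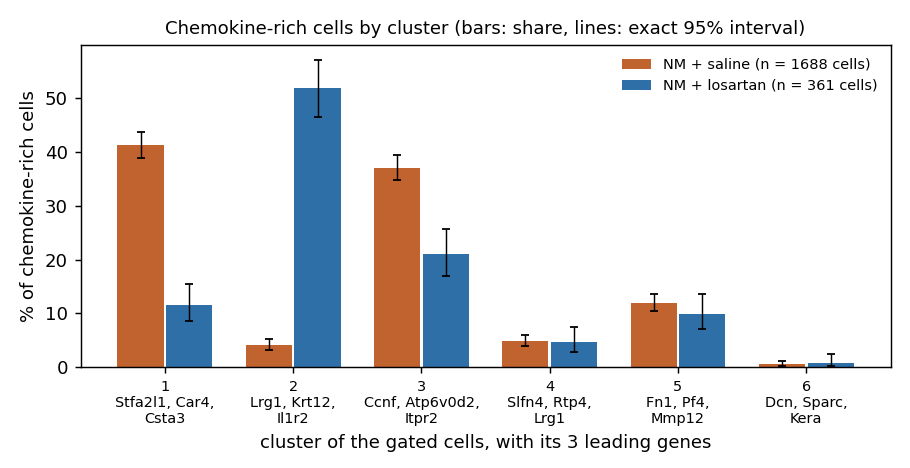
Share of all chemokine-rich cells, clusters 5 and 6 included (y axis, %) in each of 6 clusters of the gated cells (x axis, with 3 leading genes), saline in orange (1688 cells) and losartan in blue (361 cells), with exact 95% binomial intervals. Clusters 1 and 3 hold most saline cells and cluster 2 most losartan cells; clusters 5 and 6 hold the 252 cells with macrophage, dendritic or stromal genes.

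The clusters differed in which mediators they carried. Tnf was highest in cluster 1, at 4871 CPM in saline and 4924 CPM in losartan, and lowest in cluster 2 in saline (1750 CPM) and in cluster 4 in losartan (1869 CPM). Cxcl1 was 6185 and 6303 CPM in cluster 3 and 1056 and 396 CPM in cluster 4. Csf3 was 971 and 1161 CPM in cluster 3, against 70.7 and 158 CPM in cluster 2. Inhba was 1632 and 987 CPM in cluster 3, and Hcar2 2962 and 2846 CPM. Cluster 3 held the least Cxcr2, 90.02 and 96.4 CPM, and cluster 4 the most, 579 and 642 CPM. Cluster 4 also held the most Rsad2, an interferon-induced antiviral gene, at 443 and 321 CPM, and Isg15 at 983 and 340 CPM.

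Most measured genes were within 2-fold between the libraries. Of 2618 measured genes 36 (1.38%) were at least 2-fold higher and 47 (1.80%) at least 2-fold lower in losartan on the scale of log2 CPM plus 20, which understates the change of low genes. With all 2049 members it was 45 of 3028 (1.49%) higher and 45 (1.49%) lower, of which 14 and 27 were the same genes. The lower genes of all members were led by Mmp12, Ccl24, Car4, Serpinb2, Cd36 and Arg1. Mmp12 was 978 CPM in saline and 69.9 CPM in losartan with all members, but 6.56 CPM and 0 without clusters 5 and 6, and Cd36 was 157 and 25.2 CPM with all members, but 6.40 CPM and 0 without them.

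The genes higher in losartan are named here if their CPM outside the gate was under 5 times that in the members. A gene higher outside the gate than in the members could pass this limit. Lrg1, Arhgap15 and Ifitm1 came first. Lrg1 was 31.7 CPM in saline (27.4 to 36.5) and 270 CPM in losartan (237 to 306), 8.53-fold higher (7.03 to 10.4). Il1r2, the decoy receptor that soaks up interleukin 1, was 774 and 2244 CPM, 2.90-fold higher (2.75 to 3.05). It is a gate gene, which the rule used at unequal depth in the 2 libraries, so its difference is a description. Thinned to 1500 UMIs, Il1r2 had a UMI in 47.9% of saline and 79.0% of losartan members. Ifitm1, an interferon-induced membrane protein, was 459 and 1424 CPM, 3.10-fold higher (2.90 to 3.31). Arhgap15, a Rac regulator, was 24.0 and 160 CPM. Sirpb1b and Sirpb1c, paired activating receptors so alike that reads may be split between them, were 81.9 and 265 CPM and 46.6 and 170 CPM. Dhx40, Tgfbi, Entpd3 and Igfbp6 completed the 10, and Entpd3 and Igfbp6 stood on 46 and 50 UMIs in losartan.

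The genes lower in losartan had varied roles. Lcn2, the iron-trapping lipocalin, was 1575 CPM in saline and 648 CPM in losartan, 2.43-fold lower (2.24 to 2.65). Car4, a membrane carbonic anhydrase, was 134 and 6.59 CPM, 20.3-fold lower (9.29 to 55.5), with 6 UMIs in losartan. Edn1, endothelin 1, was 91.2 and 6.59 CPM, with 6 UMIs in losartan and a UMI in 6.9% of the saline members. Pts, an enzyme of tetrahydrobiopterin synthesis, was 382 and 139 CPM, 2.74-fold lower (2.29 to 3.31). Tsc22d3, the glucocorticoid-induced leucine zipper, was 231 and 80.1 CPM, and Ddit4, a stress gene that hypoxia induces, 67.6 and 17.6 CPM. Stfa3, Abcc5, H2-Q7 and Mgst1 completed the 10.

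**Figure D4:**
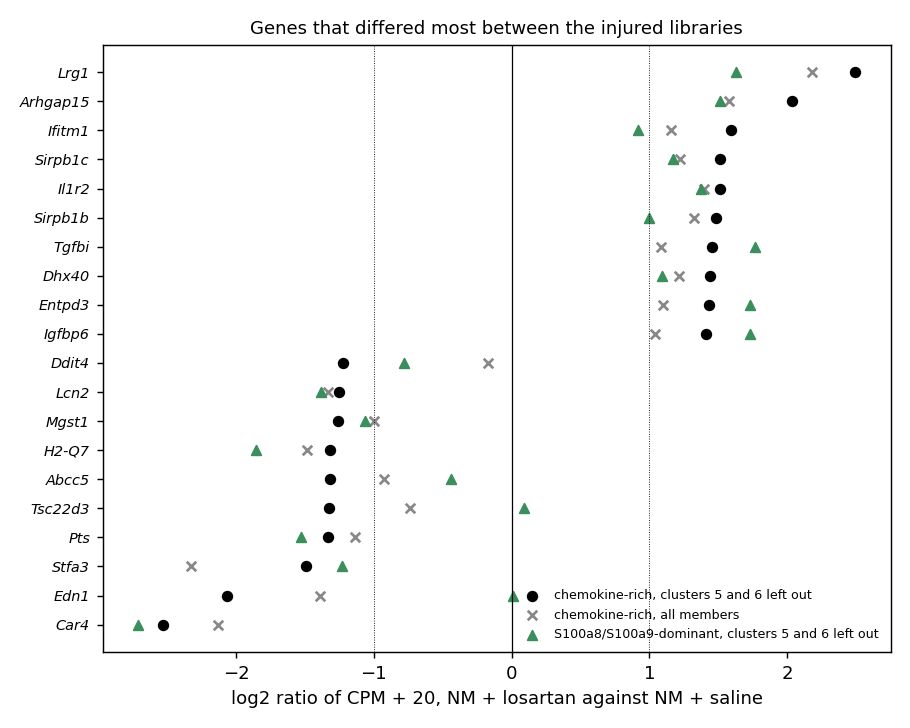
Log2 ratio of CPM plus 20, losartan against saline (x axis), for the 10 genes highest and the 10 lowest in the chemokine-rich cells without clusters 5 and 6 (black circles; y axis), with the ratio over all members (grey crosses) and in S100a8/S100a9-dominant cells (green triangles); dotted lines mark 2-fold. Edn1 and Tsc22d3 lie below −1 in the chemokine-rich cells and near 0 in the S100a8/S100a9-dominant cells.

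Most of these differences were also seen in the other gated neutrophils. In the S100a8/S100a9-dominant cells 8 of the 10 higher genes and 6 of the 10 lower genes were past 2-fold the same way, where 2.06% of 2672 measured genes were higher and 1.68% lower. With all members 10 and 6 were. Edn1 (12.3 and 12.5 CPM) and Tsc22d3 (176 and 188 CPM) were close in the 2 libraries in the S100a8/S100a9-dominant cells. Fewer of the named genes were past 2-fold within clusters. In cluster 3, 1 of the 10 higher genes (Dhx40, 288 and 698 CPM) and 8 of the 10 lower ones were past 2-fold, against 1.97% and 2.87% of all measured genes. In cluster 1 it was 3 and 8, against 3.32% and 5.41%. In cluster 2, with 70 saline cells, it was 6 and 2, against 3.52% and 15.9%. In cluster 4, with 17 losartan cells, it was 5 and 4, against 13.3% and 8.23%. Lcn2 was 1999 and 848 CPM in cluster 1 and 1351 and 1423 CPM in cluster 3.

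Cytokine levels also depended on the cluster. Tnf was 1.01 times as high in losartan as in saline in cluster 1 (0.930 to 1.10), 1.35 times in cluster 2 (1.23 to 1.49), 0.729 times in cluster 3 (0.667 to 0.795) and 0.676 times in cluster 4 (0.543 to 0.832). Il1a stood at 0.898, 1.58, 0.839 and 0.488 times in these clusters. So the lower Tnf of the losartan members as a whole was not seen in each cluster, and neither was the lower Il1a. The cluster 2 values rest on 70 saline cells whose epithelial markers summed to 9714 CPM, against 481 to 498 CPM in the saline cells of clusters 1, 3 and 4, and 1973 CPM in the losartan cells of cluster 2. The median saline cell of cluster 2 held 3.20 UMIs per 10000 of these markers. The part of that epithelial RNA in the cluster 2 values was not tested.

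The epithelial genes Krt12, Fabp5, Aldh3a1, Krt16 and Hspb1 were also past 2-fold higher in losartan, and are named apart because the cells outside the gate held over 5 times more of them. Krt12, the cornea-specific keratin, was 22.8 CPM in the saline and 356 CPM in the losartan members, beside 2024 and 8941 CPM outside the gate. It was as high in the S100a8/S100a9-dominant cells, 22.6 and 331 CPM. The part of free epithelial RNA in the other differences was not tested.

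Genes of glycolysis and the hypoxia response were lower in losartan as a group. Of 24 measured members 22 were lower, 1 of them past 2-fold, with a median log2 ratio of −0.54. Over all 2618 measured genes 1279 were lower, 1.80% were past 2-fold lower and the median was 0.01. By cluster the list median was −0.71 in cluster 1, −0.21 in cluster 2, −0.63 in cluster 3 and −0.37 in cluster 4. In cluster 2, 14 of 23 listed genes were lower, beside 1611 of all 3150 measured genes. With all members the median was −0.46, and in the S100a8/S100a9-dominant cells −0.41 against 0.12 over all genes. Hilpda, an inhibitor of lipid breakdown that hypoxia induces, was 1265 CPM in saline and 658 CPM in losartan, 1.92-fold lower (1.77 to 2.09). Among the enzymes, Gapdh was 1001 and 622 CPM, Aldoa 304 and 165 CPM, Pgk1 217 and 141 CPM and Tpi1 105 and 36.2 CPM. Hif1a, the oxygen-sensing transcription factor, stood at 327 and 326 CPM, and Slc16a3, the lactate exporter, was higher in losartan at 127 and 214 CPM.

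Of 15 measured cytokine receptors 4 were lower in losartan, with a median of 0.22, where 1279 of all 2618 measured genes were lower and the median was 0.01. Il1r2, the one past 2-fold, and Csf3r, at 253 and 438 CPM, are gate genes. Among chemotactic receptors, Cxcr2, also a gate gene, was 187 and 330 CPM, and C5ar1, the receptor of the complement fragment C5a, 846 and 1460 CPM. Fpr1, the receptor for bacterial formyl peptides, was 1412 and 1315 CPM and Ccr1 1238 and 1165 CPM. The 8 gate genes had a median of 0.73, from 0.06 for Clec4e to 1.51 for Il1r2.

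Other groups were divided, and their counts stand beside 1279 of 2618 measured genes lower overall. Of 9 measured interferon-stimulated genes 5 were lower in losartan, among them Irf1 (277 and 128 CPM) and Rsad2 (87.3 and 32.9 CPM), while Slfn4 was higher (260 and 436 CPM), with a median of −0.47 without clusters 5 and 6 and 0.14 with all members. Of 13 measured specific and gelatinase granule genes 9 were lower, with a median of −0.32. Ltf, lactoferrin, was 142 and 25.2 CPM, yet Mmp9, gelatinase B, was 728 and 866 CPM. NF-kB feedback genes had a median of −0.12, with Tnfaip3, the inhibitor A20, at 1394 and 1014 CPM. Antigen presentation genes had a median of −0.40, and of 0.68 with all members, where H2-Aa was 1211 and 3212 CPM.

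**Figure D5:**
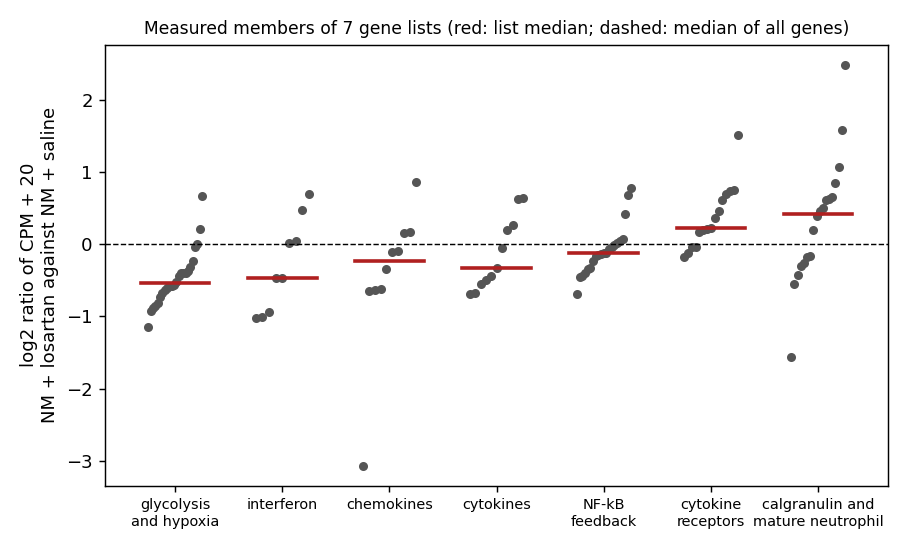
Log2 ratio of CPM plus 20, losartan against saline (y axis), of each measured gene in 7 gene lists (x axis) in the chemokine-rich cells without clusters 5 and 6; red bars are list medians and the dashed line is the median of all genes, 0.01. The glycolysis and hypoxia genes centre at −0.54 and the calgranulin and mature neutrophil genes at 0.43.

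Losartan's own receptor was not seen in these cells. Agtr1a and Agtr1b, the mouse genes of the type 1 angiotensin II receptor, Agtr2, the type 2 receptor, Ace, the converting enzyme, and Agt, the precursor, each had 0 UMIs in both libraries, which allows up to 0.492 CPM in saline and 3.29 CPM in losartan. Tgfbr1, a receptor of transforming growth factor beta, was 161 and 189 CPM and Tgfb1, the ligand, 122 and 199 CPM, 1.63-fold higher in losartan (1.38 to 1.92).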

How the data were processed

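Each library was made with 10x Genomics chemistry, and the deposited gene by cell matrices hold UMI counts from Cell Ranger 8.0.0, per the file headers, on GRCm38, per the submitters' processing notes. Which annotation release was used, whether introns were counted and whether doublets had been taken out earlier is not given in the sources used here. Per the files, the authors' count matrices held 83155441 UMIs in saline, 92753670 in losartan and 177003042 in the uninjured library.

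From these counts, UMIs were summed over each set of cells and scaled to CPM. The 95% intervals are conditional binomial for a ratio, Poisson for a level and Clopper-Pearson for a share, each of them exact. PCR copies are collapsed by UMI, and cells of 1 library are not replicates. Genes were measured at 50 CPM or more in either set, and ratios past 2-fold were taken on log2 of CPM plus 20. A count of 0 was read as up to 3 counts. Gated cells were clustered on 1500 variable genes, 20 components and 15 neighbours (leidenalg 0.10.2, resolution 0.5). Doublets were scored against simulated pairs and left in; removing them was an alternative. The steps ran in Python 3.11.15 with numpy 2.4.6, scipy 1.17.1 and scikit-learn 1.9.0, and were tested on simulated data.

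Named genes were the 10 highest and 10 lowest in losartan and the 12 each way for the split, past 2-fold, with 10 or more cells holding 50% of the UMIs, and without mitochondrial, ribosomal and unnamed models. Genes 5 or more times higher outside the gate were named apart. Members of the 37 gene lists (603 of 608 symbols matched), the gate genes and the ratio genes could also be named. The members and lists were chosen with earlier results of these data known, and setting clusters 5 and 6 aside was chosen after seeing the data. Alternatives changed the gene, gate, keratin and ratio limits, the depth, the pseudocount, the fold and the averaging.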

Additional observations from a re-analysis of the deposited data

How the results depend on the processing

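No paired analysis was possible because each group has 1 library. Of 134 shares, counts and list counts recomputed under the alternatives, 89 stayed close and 45 moved, and in each alternative run the chemokine-rich share was higher in saline than in losartan. The saline share of passing cells, 27.5%, was 25.9% with a lower gene minimum, 28.8% with at least 1000, 29.6% and 23.9% with at least 2 and 4 gate genes, 20.1% with a 2-fold chemokine excess, 21.4% in cells thinned to 1000 UMIs and 24.0% without clusters 5 and 6. The losartan share, 6.99%, was 4.39% with at least 1000 genes, 4.75% with keratins under 10 per 10000, 5.15% with the 2-fold excess, 6.01% thinned and 6.24% without clusters 5 and 6. Of gated cells, saline was 47.4% with 4 gate genes, 36.5% with the 2-fold excess, 44.4% thinned and 47.6% without clusters 5 and 6. Losartan was 21.3% with at least 1000 genes and 17.9% with the 2-fold excess.

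Over all members, 45 genes were past 2-fold higher in losartan, and 119 with at least 1000 genes, 119 with 2 gate genes, 98 with keratins under 10, 84 with a pseudocount of 5 and 213 past 1.5-fold. The 45 lower genes were 80 with at least 1000 genes and 162 past 1.5-fold. Against S100a8/S100a9-dominant cells, the 42 higher genes were 79 with the 2-fold excess, 17 thinned, 78 with a pseudocount of 5, 26 by the mean over cells, 152 past 1.5-fold and 18 without clusters 5 and 6. The 31 lower genes were 14 with 2 gate genes, 17 thinned and 153 past 1.5-fold. The 1 list with a median 0.5 or more above that of all genes became 0 with 4 gate genes, thinned, with no CPM minimum, by the mean over cells and without clusters 5 and 6. Lists 0.5 or more below numbered 0, and 3 with at least 1000 genes, 2 with the 2-fold excess, 1 thinned, 1 with a pseudocount of 5, 2 by the mean over cells and 1 without clusters 5 and 6. The antigen presentation median of 0.68 turned to −0.31 thinned and −0.40 without clusters 5 and 6. The cause of the other moves was not tested. Intervals cover counting error in 1 library per group, and the 322 losartan cells limit genes under about 50 CPM.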
